A study of Mus musculus with 6 samples.

Results

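The genes described here are 37 genes of the glutathione, thioredoxin and antioxidant enzyme systems, measured by RNA sequencing in N1E115 cells, a cloned mouse neuroblastoma line. They were chosen by name, and each of the 37 symbols matched 1 of the 23358 gene rows of the deposited table. All cells carried the label NOS1+, for the neuronal nitric oxide synthase, and no genetic change or drug was named. They were kept for 3 days in 20% oxygen (3 libraries) or 4% oxygen (3 libraries), and both groups were numbered 1 to 3. The labels leave unsaid if replicates are separate cultures. The p-values below therefore cover only library-to-library spread, part of which may be technical.

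Glutathione is a small thiol that cells build in 2 steps, by glutamate-cysteine ligase and then glutathione synthetase, and regenerate with glutathione reductase. Peroxidases spend it on hydrogen peroxide and lipid peroxides, and transferases attach it to reactive compounds. Thioredoxins and peroxiredoxins form a parallel thiol system, superoxide dismutases and catalase act on superoxide and peroxide directly, and metallothioneins bind zinc and copper through their many cysteines. NRF2, the product of Nfe2l2, is held down by KEAP1 and switches on many of these genes through the antioxidant response element.

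The libraries held 124259152 to 163695286 counts over genes, and all counts were even. The oxygen labels were checked on 7 genes known to respond to low oxygen, among them Slc2a1, Pdk1 and Bnip3. Their summed level was 157 to 490.5 CPM (counts scaled to library size with TMM factors) at 20% oxygen and 1153 to 1679 CPM at 4% oxygen, with no overlap. Of 13 sympathetic neuroblast markers, Nefl and Nefm stayed under 1 CPM in every library. Their summed level did not overlap between groups, at 3920 to 4095 CPM at 20% oxygen and 5544 to 6915 CPM at 4% oxygen, and its part in the values below was not tested. The 7 Schwann and glial markers summed to at most 2.93 CPM in any library, and the 7 immune and endothelial markers to at most 11.6 CPM. Replicate 1 at 20% oxygen stood apart, at -75.0 on the first principal component against -27.5 to 48.9 for the other 5, and it also held the highest summed mesenchymal markers, 36.7 CPM against 5.24 to 17.9 CPM elsewhere. Of those 9 markers, 6 were under 1 CPM in all libraries, among them Lum at 0.

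No oxygen difference passed the test in the 35 of the 37 genes that could be tested. The quasi-likelihood test of edgeR, with p-values adjusted by Benjamini-Hochberg over 14979 genes, called 0 of the 35 genes that passed the filter on low counts, and it called 0.0% of all genes tested. It also called 0 of the 7 genes of the label check, whose median log2 fold change was 1.93 and which all had an unadjusted p under 0.05, so a gene that missed this threshold is not shown to be unchanged. DESeq2, limma-voom and edgeR blocked on the replicate number also called 0 of them, although DESeq2 called 0.394% of all genes and the block fit 0.0734%, with 3 of the 7 label-check genes among the latter. At an unadjusted p under 0.05, edgeR gave 1 of the 35 as lower at 4% oxygen, the transferase gene Gsta4, and 0 as higher. That is 2.86% of them, against 4.43% of all genes tested, 1.42% lower and 3.01% higher. The estimates leaned to the low side, with 23 of 35 log2 fold changes (4% over 20% oxygen) below 0 and a median of -0.19, against 52.7% below 0 and a median of -0.03 over all genes. In 27 of the 35 the estimate was smaller than 0.5 in size.

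The spread of each estimate limits what the fit without the replicate block could show. In 24 of the 35 genes (68.6%, against 51.7% of all genes tested) the 95% interval of the fold change lay inside a 2-fold change in either direction. In the other 11 the interval reached beyond 2-fold on at least 1 side. These were Gclc, Gclm, Gpx3, Gpx7, Gsta4, Gstt1, Txnrd1, Mt1, Mt2, Nqo1 and Osgin1. With the replicate number as a block the SE was larger for Gpx7, Mt1 and Osgin1 and smaller for the rest of the 11. For Gclc it was 0.21 against 0.47, and for Gclm 0.23 against 0.39. Intervals were not computed for the block fit, so the list of 11 holds only without the block. In bulk RNA, a lower level per cell and a smaller share of expressing cells cannot be told apart.

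**Figure D1:**
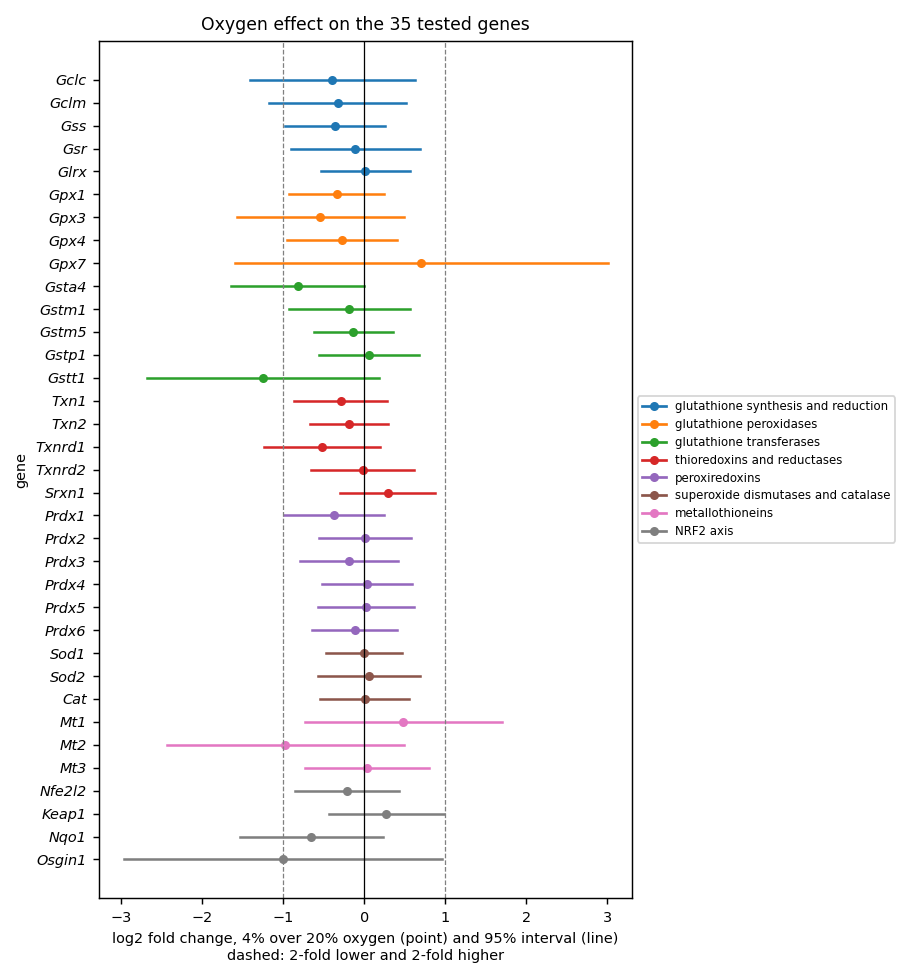
Fitted log2 fold change (4% over 20% oxygen, horizontal axis) with its 95% interval for each of the 35 tested genes, coloured by family; dashed lines mark a 2-fold change. The intervals of 34 genes cross 0, and that of Gsta4 ends just below it.

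Levels between genes were compared on the authors' RPKM, which is scaled by length. Peroxiredoxins made up 40.6% to 48.9% of the summed RPKM of the 37 genes in each library, glutathione peroxidases 14.4% to 23.1%, the dismutases with catalase 11.6% to 18.4%, and metallothioneins at most 1.27%. The highest mean RPKM over the 6 libraries belonged to Prdx2 (475), Sod1 (316), Gpx4 (307), Prdx1 (192), Prdx4 (138) and Txn1 (107). All of these but Prdx4 have near-identical copies elsewhere, so their counts may have gained or lost reads. At the other end Osgin1, Gpx7, Gpx8 and Sod3 stayed below 0.1 RPKM in every library.

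**Figure D2:**
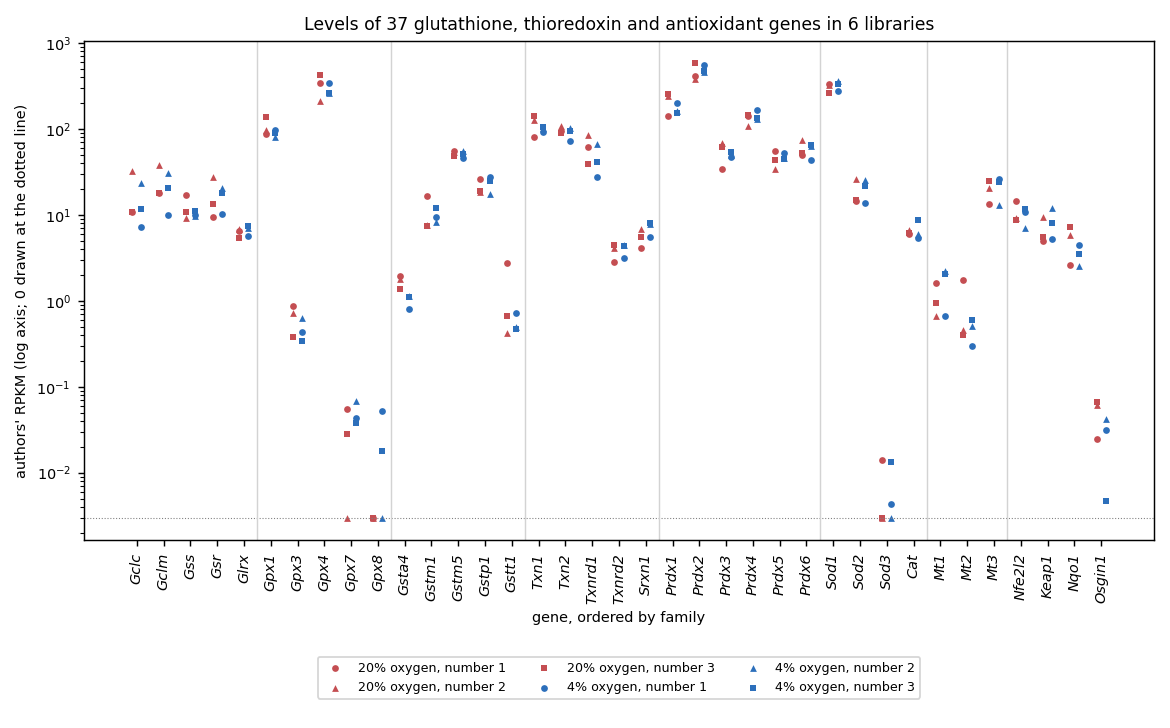
The authors' RPKM (vertical log axis) of the 37 genes in each of the 6 libraries, with families separated by grey lines; a value of 0 is drawn on the dotted line. The spread over libraries is small beside the range between genes, which runs from Sod3 near 0 to Prdx2 at 382 to 578 RPKM.

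Among the genes that make and reduce glutathione, Gclc encodes the catalytic subunit of glutamate-cysteine ligase, the rate-limiting enzyme of glutathione synthesis (mm10 chromosome 9, 77754535 to 77794489). Replicates 1, 2 and 3 had 59.5, 167 and 63.6 CPM at 20% oxygen and 40.3, 123 and 57.7 CPM at 4% oxygen. The libraries numbered 2 were the highest in both groups, and the groups overlapped. The log2 fold change was -0.39 (SE 0.47, 95% interval -1.41 to 0.63; edgeR adjusted p = 0.996). Gclm, the modifier subunit of the same enzyme (chromosome 3, 122245592 to 122266648), had 43.0, 83.8 and 45.7 CPM at 20% oxygen and 24.2, 69.3 and 43.7 CPM at 4% oxygen, in the same order of libraries. Its log2 fold change was -0.33 (SE 0.39), and within each replicate number the 4% oxygen library was the lower one, as it was for Gclc. For both genes the sign turned in a fit without the replicate block. Without replicate 2 at 20% oxygen the log2 fold change was 0.26 for Gclc and 0.05 for Gclm. That fit left the high number 2 library at 4% oxygen without its partner. With no library dropped and the replicate number as a block, the log2 fold change was -0.38 for Gclc and -0.39 for Gclm. Some Gclm counts are uncertain where strand was not used, since 296 of its exon bases in GENCODE M21 are shared with the opposite-strand gene Gm17494, and a further overlap of 244 bases, with Gm6061, is on the same strand.

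Gsr, the glutathione reductase gene, repeated the high number 2 libraries, at 40.8, 111 and 62.4 CPM at 20% oxygen and 45.5, 83.9 and 69.0 CPM at 4% oxygen. Its log2 fold change of -0.11 (SE 0.36) had no common sign over the 3 numbers. Gss, which encodes glutathione synthetase, went the other way round and was highest in 20% oxygen replicate 1, at 50.9 CPM against 26.0 to 34.9 CPM elsewhere. Glrx, a glutaredoxin that uses glutathione to reduce protein disulfides, was the steadiest of the family. It had 13.8, 13.9 and 12.6 CPM at 20% oxygen and 12.3, 14.2 and 14.1 CPM at 4% oxygen (log2 fold change 0.01, SE 0.25, 95% interval -0.54 to 0.56). Of the 5 genes, 4 had estimates below 0, with a median of -0.33 log2 that became 0.047 without replicate 2 at 20% oxygen and -0.047 without replicate 1 at 4% oxygen.

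Because Gclm and Txnrd1 are textbook NRF2 targets that shared the high number 2 libraries, the 250 bases upstream of their RefSeq starts (build GRCm38.p6, the same assembly as mm10, plus strand for both) are shown here. Capitals mark matches to TGACNNNGC, the core of the antioxidant response element, on either strand.
Gclm, chr3:122245307-122245556: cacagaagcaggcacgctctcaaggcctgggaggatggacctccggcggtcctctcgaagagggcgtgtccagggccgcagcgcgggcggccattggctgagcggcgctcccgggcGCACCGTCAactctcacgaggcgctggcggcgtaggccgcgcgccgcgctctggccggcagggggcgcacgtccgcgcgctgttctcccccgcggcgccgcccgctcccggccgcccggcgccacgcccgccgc
Txnrd1, chr10:82858956-82859205: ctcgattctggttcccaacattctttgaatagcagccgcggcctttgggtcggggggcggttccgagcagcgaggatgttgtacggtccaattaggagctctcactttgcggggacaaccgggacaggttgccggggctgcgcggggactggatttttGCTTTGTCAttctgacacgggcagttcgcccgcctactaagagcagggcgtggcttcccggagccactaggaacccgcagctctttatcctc
The match begins 134 bases before the start in Gclm and 92 bases before it in Txnrd1, both in the reverse orientation. The Txnrd1 window belongs to 1 of its 3 listed starts, one that lies inside the counted gene, and the windows of the other starts hold no match. RefSeq windows were found for 32 of the 37 genes; Gclc, Gsr and Gsta4 are among those not matched. The core occurred in 7 of the 32 (21.9%) and in 11.5% of all 27025 genes with a window. The windows of Nqo1, a further NRF2 target, and of Srxn1 held no match. The relation of the core to the number 2 libraries was not tested. Gclc, Gsr and Prdx6 were highest in both of those libraries and had no window. Keap1, Sod2 and Txn2 were also highest in both of those libraries and held no match. Nfe2l2, lowest in both, held 1, and Gstm5, Mt2, Prdx1 and Sod1 held a match without either pattern. A match to these letters is a description of sequence and not a bound site.

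In the thioredoxin family, Txnrd1 encodes the cytosolic thioredoxin reductase, a selenoprotein (chromosome 10, 82833951 to 82897724). In order of replicate number it had 397, 512 and 275 CPM at 20% oxygen and 183, 404 and 239.7 CPM at 4% oxygen. The 4% oxygen library was the lower one in all 3 replicate numbers, by 1.12, 0.34 and 0.20 on the log2 scale, while the groups overlapped. The log2 fold change was -0.52 (SE 0.33, 95% interval -1.23 to 0.20; edgeR unadjusted p = 0.14, adjusted p = 0.996). Its size depended on single libraries in fits without the replicate block. Dropping replicate 2 at 20% oxygen gave -0.28, dropping replicate 1 at 4% oxygen gave -0.32, and dropping replicate 2 at 4% oxygen gave -0.90. With the replicate number as a block the edgeR unadjusted p became 0.042 and the adjusted p 0.531. That fit gave 2 of the 35 genes an unadjusted p under 0.05, Gsta4 and Txnrd1, both lower at 4% oxygen. That is 5.71% of them. Of all genes tested, 2.86% were lower and 8.87% differed in either direction.

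Txn1, the cytosolic thioredoxin itself, had 136, 199 and 255 CPM at 20% oxygen and 161, 163 and 158 CPM at 4% oxygen. The 20% oxygen libraries lay on both sides of the narrow 4% group, and the log2 fold change was -0.29 (SE 0.26). Txn2, the mitochondrial thioredoxin, had 153 to 200.1 CPM at 4% oxygen against 194 to 209 CPM at 20% oxygen. Txnrd2, its mitochondrial reductase and the least abundant of the family by RPKM, had 8.65, 12.0 and 14.6 CPM at 20% oxygen and 9.78, 12.9 and 12.1 CPM at 4% oxygen. Srxn1, the sulfiredoxin that repairs overoxidised peroxiredoxins, was the one gene of the 5 with an estimate above 0. It had 17.0, 26.8 and 24.9 CPM at 20% oxygen and 23.7, 30.5 and 29.6 CPM at 4% oxygen. The 4% oxygen library was the higher one in each replicate number, but the groups overlapped and the log2 fold change of 0.29 (SE 0.27) did not pass the edgeR test (adjusted p = 0.996).

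**Figure D3:**
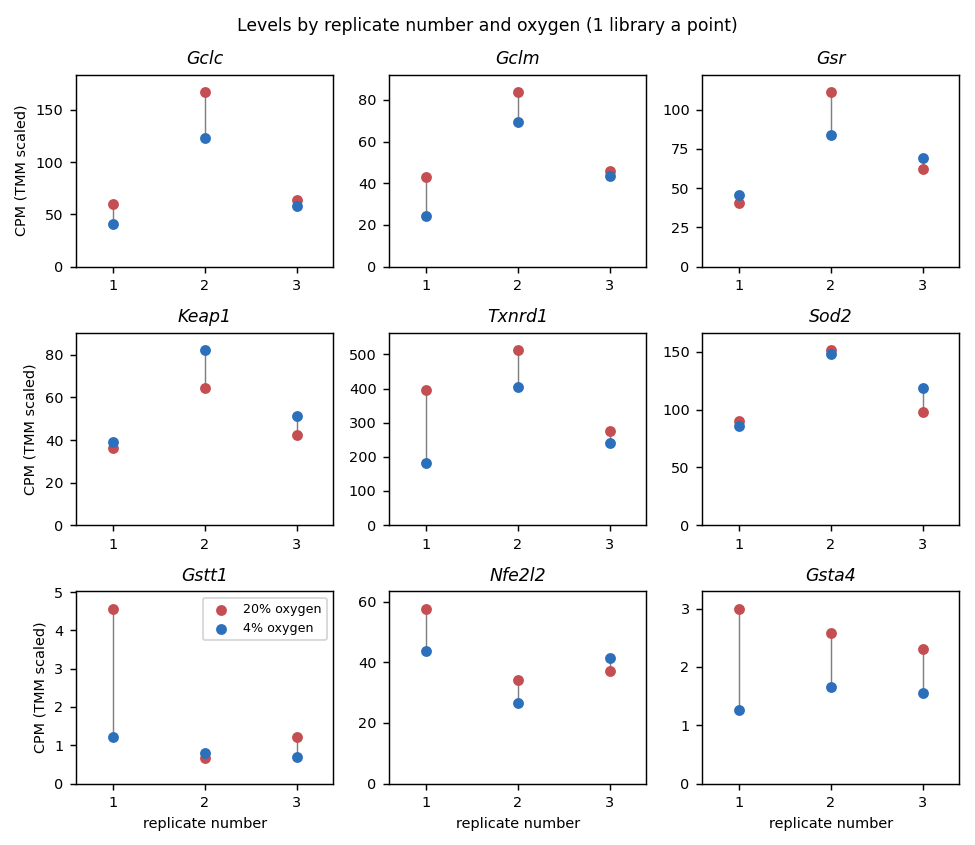
Level in CPM (TMM scaled, vertical axis from 0) of 9 genes by replicate number (horizontal axis); red points are 20% oxygen, blue points 4% oxygen, and a grey line joins the libraries of 1 number. Gclc, Gclm, Gsr, Keap1, Txnrd1 and Sod2 were highest in both number 2 libraries, Gstt1 was far higher in 1 library, and Gsta4 was lower at 4% oxygen in each number.

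The recurrence of the number 2 libraries was examined in a fit with oxygen and replicate number together, a test added after the values were seen. Gclc, Gclm, Gsr, Keap1, Txnrd1, Sod2 and Gstt1 had an edgeR unadjusted p under 0.05 for the replicate number. These are 7 of 35, or 20.0%, against 18.0% of all 14979 genes, so the share is close to the background. With edgeR, 0 of them passed after adjustment over all genes (0.0% of all genes did), and the smallest adjusted p was 0.0696, for Gclc. Without the filter on low counts edgeR called Gclc (adjusted p = 0.00718) and Gclm (adjusted p = 0.0492). With a library left out it called 0 to 13 of the 35 genes and 56 to 5170 of all genes. DESeq2 called 5, namely Gclc, Gclm, Gsr, Keap1 and Gstt1, among 8.32% of all genes. Both number 2 libraries lay above the other 4 in 8 of the 35 genes (22.9%, against 14.1% of all genes), which besides 6 of the genes just named were Txn2 and Prdx6. They lay below the other 4 in 4 genes, Gss, Gstm1, Gstp1 and Nfe2l2 (11.4% against 12.0%). The number with the high libraries was picked after the values were seen. Of the 13 sympathetic markers, Hand2, Gata3 and Isl1 were also highest in both number 2 libraries, while Chga, Chgb and Stmn2 had their lowest mean there. The part of these differences in the antioxidant values was not tested.

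Of the glutathione peroxidases, Gpx4 removes lipid peroxides from membranes and was the most abundant. It had 662, 385 and 894 CPM at 20% oxygen and 678, 478 and 449 CPM at 4% oxygen. The 4% oxygen libraries lay inside the range of the 20% oxygen libraries, and the log2 fold change was -0.27 (SE 0.31, 95% interval -0.95 to 0.40). Gpx1, the main cytosolic peroxidase for hydrogen peroxide, had 146, 153 and 249 CPM at 20% oxygen and 169, 129 and 134 CPM at 4% oxygen (log2 fold change -0.34, SE 0.27). In both genes 20% oxygen replicate 3 was the highest of the 6 libraries. Gpx3, the secreted plasma form, ran from 0.746 to 2.14 CPM. Gpx7 and Gpx8, peroxidases of the endoplasmic reticulum, were barely present. Gpx7 had 14, 0 and 8 raw counts at 20% oxygen and 12, 20 and 10 at 4% oxygen, and Gpx8 had 0, 0 and 0 against 12, 0 and 4. Since all counts were multiples of 2, a count of 0 allows up to 3 such steps, or 6 counts and 0.0375 to 0.0496 CPM in these libraries for counting error alone. Gpx8 did not pass the filter, and its difference was not detectable at this depth. Gpx4 counts may also include reads of the near-identical Gpx4-ps2 (99.7% over 762 bases), whose treatment in the counting is not given in the sources used here.

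Gsta4, a glutathione transferase that detoxifies 4-hydroxynonenal from oxidised lipids (chromosome 9, 78191966 to 78209349), was the one gene of the 35 whose groups did not overlap. That is 2.86% of them, against 10.0% of all genes tested (3.72% lower and 6.33% higher at 4% oxygen). It had 2.99, 2.58 and 2.31 CPM at 20% oxygen and 1.26, 1.65 and 1.54 CPM at 4% oxygen, so all 3 libraries at 4% oxygen were below all 3 at 20% oxygen. The means were 2.63 ± 0.344 and 1.49 ± 0.200 CPM (SD, n = 3), and the fitted log2 fold change was -0.82 (SE 0.37). It did not pass the edgeR test over all genes (unadjusted p = 0.0499, adjusted p = 0.996). Its adjusted p was 0.487 in the edgeR block fit and 0.68 with DESeq2. No leave-one-out fit gave it an unadjusted p under 0.05, with log2 fold changes from -0.91 to -0.72.

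Gstt1, a theta-class transferase (chromosome 10, 75783813 to 75798584), had the lowest estimate of the 35, at -1.25 log2 (SE 0.65; edgeR adjusted p = 0.996). That value came from a single library. Its levels were 4.56, 0.661 and 1.22 CPM at 20% oxygen and 1.22, 0.787 and 0.694 CPM at 4% oxygen. Without 20% oxygen replicate 1 the log2 fold change was -0.06 (SE 0.52). Gstm1, a mu-class transferase, had its highest value in the same library, 34.9 CPM against 15.1 to 22.3 CPM in the other 5, and its log2 fold change turned from -0.19 to 0.30 without it. Gstm5 was the most abundant transferase by RPKM and varied little, at 81.9, 74.3 and 76.8 CPM at 20% oxygen and 68.2, 76.5 and 67.1 CPM at 4% oxygen (log2 fold change -0.14, SE 0.22). Gstp1, the pi-class enzyme, had a log2 fold change of 0.06 (SE 0.28). Its near-identical neighbour Gstp2 carried 134 counts over the 6 libraries against 21722 for Gstp1, and counting could have split reads between them.

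The peroxiredoxins, thiol peroxidases that clear hydrogen peroxide, had 3 estimates above and 3 below 0, with a median of -0.06. Prdx2, a cytosolic member and the most abundant of the 37 genes (chromosome 8, 84969648 to 84974313), had 636, 544 and 947 CPM at 20% oxygen and 857, 649 and 632 CPM at 4% oxygen. The means were 709 ± 212 and 713 ± 125 CPM (SD, n = 3), and the log2 fold change was 0.01 (SE 0.26, 95% interval -0.56 to 0.58), a sign that turned with another scaling. Prdx1, also cytosolic, had 326.5, 512 and 628 CPM at 20% oxygen and 474, 346 and 314.5 CPM at 4% oxygen (log2 fold change -0.37, SE 0.28). Without 20% oxygen replicate 1, the lowest of its group, this became -0.59 (SE 0.24), and Txn1 and Nqo1 also reached an edgeR unadjusted p under 0.05 there (Prdx1 adjusted p = 0.544). Prdx3, the mitochondrial peroxiredoxin, ran from 79.6 CPM in that same library to 154 CPM, with 109.6 to 113 CPM at 4% oxygen. Prdx4, of the secretory pathway, Prdx5, and Prdx6, which also acts on phospholipids, had estimates between -0.12 and 0.04. Prdx5 was the least abundant, at 61.3, 35.7 and 52.2 CPM at 20% oxygen and 59.9, 47.6 and 43.9 CPM at 4% oxygen.

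The 3 tested dismutase and catalase genes had oxygen estimates between 0.00 and 0.06 log2, although their levels still varied between libraries. Sod1, the cytosolic copper-zinc enzyme (chromosome 16, 90220742 to 90226324), had 351, 317 and 297 CPM at 20% oxygen and 294, 356 and 315 CPM at 4% oxygen. Its means of 322 ± 27.1 and 322 ± 31.4 CPM (SD, n = 3) gave a log2 fold change of 0.00 (SE 0.21) with a 95% interval from -0.47 to 0.47, the narrowest of the 35. Sod2, the mitochondrial manganese enzyme, had 90.4, 151 and 98.0 CPM at 20% oxygen and 85.6, 148 and 119 CPM at 4% oxygen. Each library was close to its partner of the same number, and the number 2 libraries were the highest. Cat, which encodes catalase, had 22.5 to 32.2 CPM in all libraries and a log2 fold change of 0.00 (SE 0.25). Sod3, the extracellular dismutase, had 6, 0 and 0 raw counts at 20% oxygen and 2, 0 and 6 at 4% oxygen and did not pass the filter.

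**Figure D4:**
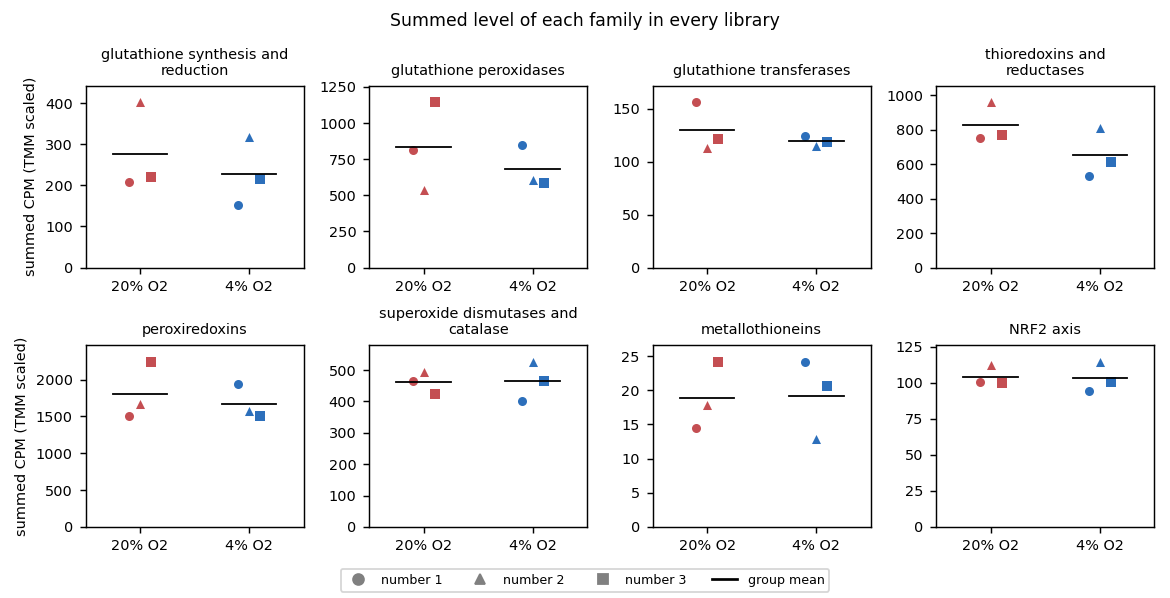
Summed CPM (TMM scaled, vertical axis from 0) of each of the 8 families in every library, by oxygen level; symbols give the replicate number and bars the group mean. In each family the groups overlap. Within each replicate number the 4% oxygen library is the lower one for thioredoxins and reductases and for glutathione synthesis and reduction. The number 2 libraries are the highest for glutathione synthesis and reduction, at 402 and 317 CPM. They are also the highest for thioredoxins and reductases, for the dismutases with catalase and for the NRF2 axis.

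The metallothioneins Mt1, Mt2 and Mt3 lie side by side on chromosome 8, between 94152607 and 94180327. Mt3, the form known from brain, held most of their signal, with 11.5, 16.9 and 22.9 CPM at 20% oxygen and 23.2, 10.7 and 18.5 CPM at 4% oxygen (log2 fold change 0.03, SE 0.35). Mt1 had 1.43, 0.545 and 0.900 CPM at 20% oxygen and 0.595, 1.82 and 1.58 CPM at 4% oxygen (log2 fold change 0.48, SE 0.55). Mt2 had 1.57, 0.380 and 0.390 CPM against 0.276, 0.425 and 0.484 CPM. Its log2 fold change, -0.98 (SE 0.67), became 0.04 without 20% oxygen replicate 1. The groups of all 3 genes overlapped. The ratio of Mt1 to Mt2 CPM was 0.911, 1.43 and 2.31 at 20% oxygen and 2.16, 4.29 and 3.27 at 4% oxygen. Mt2 counts could include the opposite-strand gene Gm45774, which covers 432 of its exon bases, if strand was not used.

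Metallothionein genes are controlled by zinc through the factor MTF1. The upstream windows of Mt1 and Mt2 (RefSeq, GRCm38.p6, plus strand) are set side by side as a description of sequence. Their relation to the levels above was not tested. Capitals mark matches to TGCACNC or TGCGCNC, the core of the metal response element, on either strand.
Mt1, chr8:94178839-94179088: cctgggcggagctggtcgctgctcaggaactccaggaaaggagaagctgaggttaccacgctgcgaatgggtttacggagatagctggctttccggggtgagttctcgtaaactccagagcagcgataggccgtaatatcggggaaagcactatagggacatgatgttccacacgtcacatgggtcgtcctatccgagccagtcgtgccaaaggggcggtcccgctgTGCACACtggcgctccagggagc
Mt2, chr8:94172368-94172617: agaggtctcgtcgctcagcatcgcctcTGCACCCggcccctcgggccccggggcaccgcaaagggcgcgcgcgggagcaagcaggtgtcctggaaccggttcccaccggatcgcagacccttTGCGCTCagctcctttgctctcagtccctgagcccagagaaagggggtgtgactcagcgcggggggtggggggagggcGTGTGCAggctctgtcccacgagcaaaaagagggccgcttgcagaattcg
The Mt1 window holds 1 match, beginning 23 bases before the start. The Mt2 window holds 3, at 223, 128 and 50 bases before its start, and a match to the antioxidant core, 79 bases before it. The window of Mt3, not printed here, holds no match to either core. Only bases upstream of the listed starts were searched, so these counts describe the windows and not the whole promoters. The metal core occurred in 11 of 32 windows of the genes described (34.4%) and in 23.8% of all genes with a window. The Gclm window shown above holds 2 such matches, 1 of which shares 3 bases with its antioxidant core.

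Of the NRF2 axis, Nfe2l2 encodes the factor itself (chromosome 2, 75675519 to 75704641). It had 57.6, 34.1 and 37.2 CPM at 20% oxygen and 43.6, 26.4 and 41.3 CPM at 4% oxygen (log2 fold change -0.21, SE 0.29), and was lowest in both number 2 libraries. Keap1, the gene of its inhibitor (chromosome 9, 21229730 to 21239332), was highest in those libraries, with 36.1, 64.3 and 42.6 CPM at 20% oxygen and 39.0, 82.1 and 51.2 CPM at 4% oxygen. Its 4% oxygen library was the higher one in each number, and the log2 fold change of 0.27 (SE 0.32) did not pass. Keap1 shares 510 exon bases with the opposite-strand gene Gm16754.

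Nqo1, a quinone reductase and a widely used NRF2 target (chromosome 8, 107388225 to 107403205), had 6.47, 13.7 and 19.7 CPM at 20% oxygen and 11.5, 6.05 and 7.84 CPM at 4% oxygen. It did not follow Gclc or Gclm across libraries: its highest value was in 20% oxygen replicate 3. The log2 fold change was -0.65 (SE 0.40; edgeR unadjusted p = 0.133, adjusted p = 0.996). Without 20% oxygen replicate 1 it was -0.99 (SE 0.31; edgeR unadjusted p = 0.00938, adjusted p = 0.386), and without 20% oxygen replicate 3 it was -0.25 (SE 0.42). Osgin1, an oxidative-stress growth inhibitor gene, was the least abundant of the axis, at 0.0775, 0.182 and 0.225 CPM at 20% oxygen and 0.102, 0.125 and 0.0131 CPM at 4% oxygen. Hmox1, the haem oxygenase gene and a further NRF2 target outside the 37 genes, had 91.2, 94.6 and 49.9 CPM at 20% oxygen and 81.5, 81.0 and 77.9 CPM at 4% oxygen (log2 fold change 0.03, SE 0.28).

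Wider lists of the same pathways also held 0 genes that passed the edgeR test after adjustment. Among 27 other NRF2 targets and partners, 0 were higher and 0 lower at an unadjusted p under 0.05, against 3.01% and 1.42% of all genes. With the replicate number as a block 3 were higher, Maff, Ugdh and Txnip, and 0 lower, against 6.01% and 2.86% of all genes. Txnip stood out in a single library, with 2.71 CPM in 20% oxygen replicate 2 against 36.9 to 67.5 CPM elsewhere. Without the block the smallest p-values of this list belonged to Ugdh, of glucuronate synthesis, and Abcc1, an exporter of glutathione conjugates. Ugdh had 34.6 ± 5.42 and 48.5 ± 3.47 CPM, and Abcc1 had 111 ± 29.8 and 153 ± 6.80 CPM (SD, n = 3). The groups of both did not overlap, and neither did those of Fth1 and Slc48a1, which were lower at 4% oxygen; these are 4 of the 27, against 10.0% of all genes. Among 28 tested glutathione genes outside the 37, 0 were higher and 2 lower, and in the block fit 3 were lower, with Ggt5 added. The first 2 were Gsto1, an omega-class transferase (chromosome 19, 47854989 to 47864788), at 29.9, 26.6 and 29.4 CPM against 14.9, 19.1 and 15.8 CPM, and Ggct, which breaks down gamma-glutamyl peptides (chromosome 6, 54985095 to 54992867), at 3.55, 3.17 and 3.32 CPM against 1.87, 1.93 and 1.79 CPM. In both, and in Lap3 of the same list, all libraries at 4% oxygen lay below all libraries at 20% oxygen, as for Gsta4. Over all genes tested 3.72% did so. The log2 fold changes of Gsto1 and Ggct were -0.79 (SE 0.24; edgeR adjusted p = 0.816) and -0.84 (SE 0.34; adjusted p = 0.996).

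The 23 tested thioredoxin-like, sulfoxide reductase and selenoprotein genes had 0 in either direction at an unadjusted p under 0.05, with Sesn3, a sestrin, at 25.2 ± 5.03 and 18.6 ± 6.28 CPM and Msrb3, a methionine sulfoxide reductase, at 12.4 ± 5.55 and 8.41 ± 2.33 CPM (SD, n = 3). Of the 7 tested metal response genes 1 was lower at an unadjusted p under 0.05, against 1.42% of all genes, the zinc exporter Slc30a1 (chromosome 1, 191906781 to 191913247). It had 182, 64.1 and 29.9 CPM at 20% oxygen and 40.1, 39.4 and 26.0 CPM at 4% oxygen, with overlapping groups (log2 fold change -1.39, SE 0.52; edgeR adjusted p = 0.996). Its highest value was in 20% oxygen replicate 1, the library with the highest Mt2, and without it the log2 fold change was -0.42 (SE 0.33). Atp7b, a copper transporter, had 3.27 ± 0.478 and 4.95 ± 1.04 CPM (SD, n = 3; log2 fold change 0.60, SE 0.33). All its libraries at 4% oxygen lay above all at 20% oxygen. The same held for Nxn and Ccs among the thioredoxin-like genes, and for 6.33% of all genes tested.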

How the data were processed

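RNA from 3 libraries at 20% oxygen and 3 at 4% oxygen was sequenced. The series text names a stranded total RNA kit and the extraction protocol an mRNA kit. Per the submitters' processing notes, TopHat2 2.0.6, Bowtie and HTSeq were used with mm10; how strand and reads with several positions were treated, and the annotation, is not stated there. Deposited counts are raw gene counts per the file headers. The deposited RPKM values are the authors' and are scaled to the deposited coding length and to a library total of which gene counts made up 57.6% to 67.8%; they were used only to compare levels between genes. Coordinates are as deposited.

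The test used edgeR 4.0.16 (R 4.3.3): filterByExpr defaults (minimum count 10, minimum total 15) kept 14979 genes, libraries were scaled by TMM, and the two-sided quasi-likelihood test compared 4% with 20% oxygen. Standard errors are the log2 fold change over the square root of F, and 95% intervals use the fit's degrees of freedom. A gene counted as called where its Benjamini-Hochberg p over all genes was under 0.05. Scripts were tested on simulated counts. Alternatives were RLE scaling, no filter, DESeq2 1.42.0, limma-voom 3.58.1, counts divided by 2, a replicate block and leaving out each library. Genes, families and lists were chosen with earlier results of these data known. By rule, genes listed by library were those with an unadjusted p under 0.05 or groups that do not overlap, and the most and least abundant of each family. Nfe2l2, Keap1, Nqo1, Gclc, Gclm and Hmox1 were also listed by rule. Others listed by library, among them Gsr, Txnrd1, Srxn1, Gpx1, Gpx7, Prdx1, Sod2 and Mt1, were chosen after their values were seen. In each wider list the 2 genes with the smallest p are named, and others named there were chosen after their values were seen. Near-identical copies (at least 95% over 200 bases) and exon overlaps come from GENCODE M21. Some marker genes are not reported here.

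What a replicate number marks is not labelled. After subtraction of group means, libraries sharing number 1, 2 or 3 correlated over genes at 0.285, 0.465 and 0.233, so the numbers were taken to pair the libraries.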

Additional observations from a re-analysis of the deposited data

How the results depend on the processing

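With the replicate number as a block the count of genes called higher at 4% oxygen was 11 against 0, and none of the 35 tested genes was called; besides the counts given here and beside the results above, the block changed no other call at an adjusted p. Without the filter on low counts 25 were called higher and 2 lower, and with DESeq2 53 and 6; leaving out each library gave 0 to 1 called lower. The count of the 35 lower at an unadjusted p under 0.05 was 1 as reported, 2 with DESeq2 or the block, 0 with limma-voom or counts divided by 2, and 0 to 3 with each library left out; none was higher in any of these fits. The median log2 fold change of the glutathione peroxidases ran from -0.50 to -0.011 and that of the peroxiredoxins from -0.17 to 0.013 with each library left out, that of glutathione synthesis and reduction from -0.407 to 0.047, of the dismutases with catalase from -0.081 to 0.079 and of the metallothioneins from -0.25 to 0.31.

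Estimates near 0 turned sign. With RLE scaling or DESeq2 Glrx was at -0.013, Prdx2 at -0.019, Prdx5 at -0.005 and Cat at -0.019; Cat was at -0.014 with limma-voom or the block, Txnrd2 at 0.005 and 0.002 under these, and Sod1 at 0.001 without the filter. With each library left out, log2 fold changes ran from -0.98 to 0.26 for Gclc, -0.76 to 0.047 for Gclm, -0.39 to 0.36 for Gsr, -0.036 to 0.052 for Glrx, -0.54 to 0.03 for Gpx4, -0.40 to 0.30 for Gstm1, -0.16 to 0.24 for Gstp1, -0.20 to 0.17 for Txnrd2, -0.17 to 0.27 for Prdx2, -0.16 to 0.17 for Prdx4, -0.17 to 0.20 for Prdx5, -0.24 to 0.03 for Prdx6, -0.081 to 0.065 for Sod1, -0.15 to 0.32 for Sod2, -0.18 to 0.079 for Cat, -1.30 to 0.036 for Mt2, -0.25 to 0.31 for Mt3, -0.36 to 0.055 for Nfe2l2, -0.081 to 0.55 for Keap1 and -0.21 to 0.19 for Hmox1. These leave-one-out fits had no replicate block, so a dropped library left its partner of the same number unmatched. The cause was not tested.

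The test of the replicate number depended on the libraries used: 3 to 20 of the 35 tested genes and 1112 to 6786 of all genes had an unadjusted p under 0.05 with a library left out. The counts moved together: 20 and 6786 when 4% oxygen replicate 1 was dropped, 11 and 4634 when 20% oxygen replicate 1 was, 3 and 1112 when 20% oxygen replicate 2 was, and 3 and 1539 when 4% oxygen replicate 2 was. Spread between libraries limits the precision, except for the sparsely counted Gpx7, Gpx8, Sod3 and Osgin1.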
